A study of Solanum lycopersicum with 12 samples.

Results

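The ACC synthases are the enzymes that turn S-adenosylmethionine into 1-aminocyclopropane-1-carboxylic acid (ACC), the direct precursor of the plant hormone ethylene. The family was followed here through all probe sets that the annotation of the Affymetrix Tomato Genome Array pairs with ACS1A, ACS2, ACS3, ACS4, ACS5, ACS6, ACS7 or ACS8. Each of the 8 genes had 1 probe set, so that 8 of the 10038 tomato probe sets on the array were described. RNA came from the shoots of tomato (Solanum lycopersicum “Marmande”, tissue labelled as leaves) at an age of 3 weeks, in 4 groups of 3 arrays, each array with a pool of plants. Control plants grew from untreated seeds, and the others from seeds coated with spores of wild-type Trichoderma harzianum T34 or of its transformants amdS6 and amdS122. Both transformants are monosporic isolates of T34 that carry the Aspergillus nidulans acetamidase gene amdS behind the gpdA promoter, with a single copy of the cassette in amdS6 and more than one in amdS122. No transformant with an empty cassette was among the 4 groups. All plants grew in autoclaved soil in a greenhouse.

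In plants, the step from S-adenosylmethionine to ACC usually limits how much ethylene is made, and ACC oxidase then converts ACC into ethylene. The gene family gives each organ and each stimulus its own enzymes. In tomato, ACS2 and ACS4 serve the ethylene burst of ripening fruit, while ACS1A and ACS6 are known from unripe fruit, and ACS6 also from leaves after touch. The enzymes are also controlled as proteins: ACS2 belongs to the type with target sites for mitogen-activated and calcium-dependent protein kinases at its end, and in Arabidopsis phosphorylation by MPK3 and MPK6 protects such enzymes from degradation.

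The array files hold no detection calls, and so the level of each member was set against 63 reporter probe sets for transcripts that tomato does not make. A member was taken as near background where its mean log2 signal over the 12 arrays was below the 95th percentile of the reporter means, 4.90 (reporter median 4.14, highest reporter 5.14). By this rule 6 of the 8 members, ACS2, ACS3, ACS4, ACS5, ACS7 and ACS8, were near background, as were 18.1% of all tomato probe sets. Their means lay between 4.16 for ACS7 and 4.82 for ACS2. ACS1A, with a mean of 6.70, and ACS6, with 9.02, were above the reporter limit on all 12 arrays. ACS2 and ACS3 passed the limit of the same array on 2 arrays each, and the other members near background on none. These signals place each probe set against background only, because the brightness of different probe sets does not rank the transcripts of different genes.

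**Figure D1:**
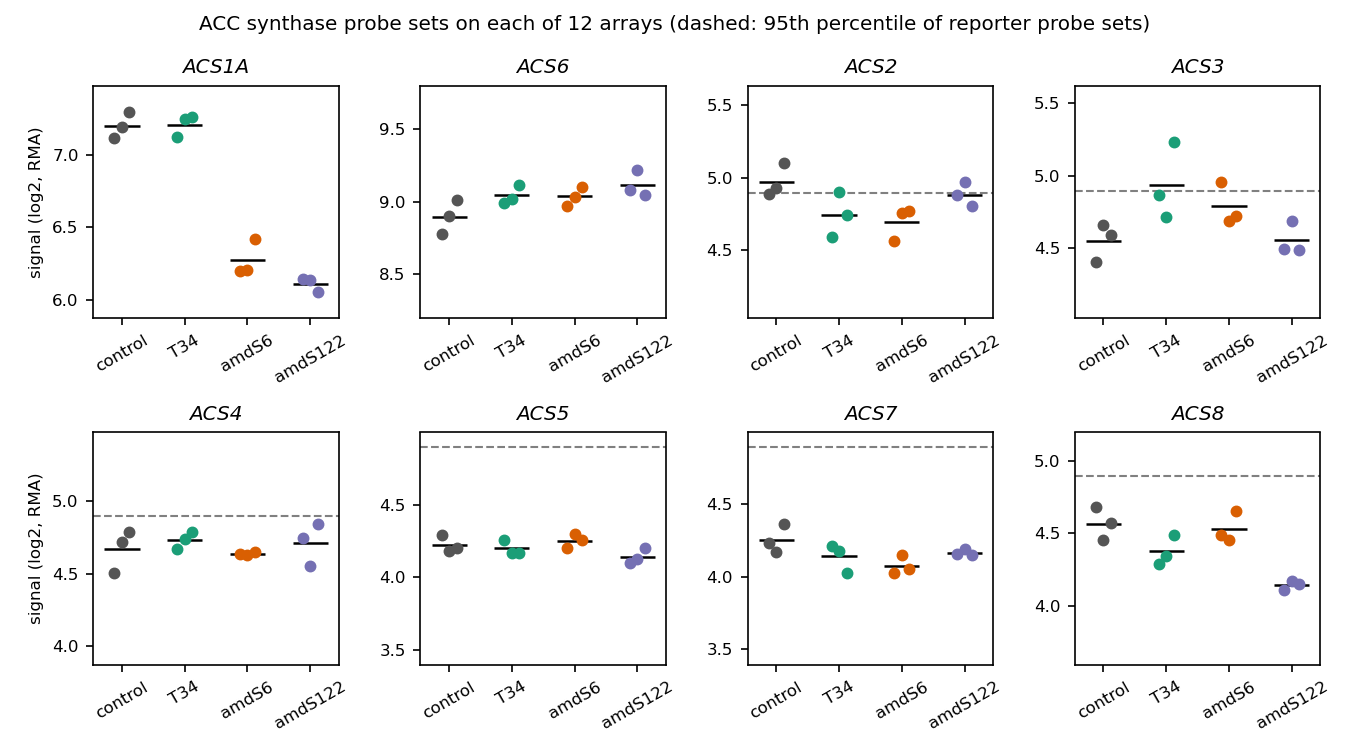
Log2 RMA signal (vertical axes, each spanning the same distance) of the 8 ACC synthase probe sets on every array, by seed coating; points are arrays, black bars group means (n = 3), and the dashed line is the 95th percentile of the reporter probe sets, 4.90, where it falls in the panel. ACS1A drops from about 7.20 in the control and T34 plants to 6.27 and 6.11 with the transformants, ACS6 stays near 9, and the other members lie around or under the dashed line.

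ACS1A was lower in the plants treated with either transformant, while the T34 arrays overlapped with the control arrays. The log2 signals were 7.12, 7.19 and 7.30 on the control arrays and 7.12, 7.25 and 7.26 on the T34 arrays. They were 6.20, 6.20 and 6.42 with amdS6, and 6.14, 6.13 and 6.05 with amdS122. The 6 arrays of the transformants therefore lay below the 6 others with no overlap, the nearest values being 6.42 and 7.12. The mean of the control group was 7.20 ± 0.089 and that of T34 7.21 ± 0.075, against 6.27 ± 0.12 for amdS6 and 6.11 ± 0.050 for amdS122 (SD, n = 3 each).

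Against control plants ACS1A was 2.13-fold lower with amdS122 (-1.09 ± 0.068 (SE) as a log2 fold change over 3 arrays per group, limma adjusted p = 1.42e-07), with a 95% confidence interval from 1.92-fold to 2.36-fold. With amdS6 it was 1.90-fold lower (log2 fold change of -0.93, adjusted p = 7.4e-07), with an interval from 1.71-fold to 2.11-fold. In an RNA pool of whole shoots, fewer cells that hold the transcript and less transcript per cell cannot be told apart. The study used a multi-class Significance Analysis of Microarrays test at a false discovery rate of 0.1 with a change of at least 2-fold. Here limits of the same size were set on the adjusted p of limma and on the fold change. ACS1A met both with amdS122, whereas with amdS6 it met the adjusted p alone. Of all probe sets, 1.49% fell further with amdS6 and 1.5% with amdS122. For T34 the difference from control was 0.0069 on the log2 scale (adjusted p = 0.972), and its 95% interval ran from -0.14 to 0.16. The sign turned with a further quantile normalization (-0.0089) and with array weights (-0.0086).

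Compared directly with T34, the strain from which they were made, ACS1A was 1.91-fold lower with amdS6 (log2 fold change of -0.93, adjusted p = 6.66e-07) and 2.14-fold lower with amdS122 (-1.10, adjusted p = 1.15e-07). The first value passed the 2-fold limit when amdS6 replicate 3, the highest of its group, was left out (-1.01). Between the transformants the difference was small: ACS1A was lower with amdS122 by 1.12-fold (-0.16 on the log2 scale, with a 95% interval between -0.31 and -0.014, adjusted p = 0.0919). The groups did not overlap, but the call was lost under 9 of 15 alternatives, among them without amdS6 replicate 3 (-0.092, adjusted p = 0.334), and without any one of amdS122 replicates 1, 2 and 3 (adjusted p = 0.12, 0.137 and 0.234).

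The completeness of the transcripts also differed between the groups. The 3' minus 5' signal, averaged over the control probe sets of actin, ef1a and gapdh, was 3.17 ± 0.055 for the control group and 3.03 ± 0.047 for T34, but 2.89 ± 0.069 for amdS6 and 2.70 ± 0.12 for amdS122 (log2 difference, SD, n = 3 each). The arrays of the transformants did not overlap with the others. In this signal the T34 arrays, from 2.994 to 3.084, also lay below all control arrays, from 3.116 to 3.225. With this signal as a covariate the log2 fold change of ACS1A was -0.85 with amdS6 (adjusted p = 0.00116) and -0.96 with amdS122 (adjusted p = 0.012), the latter under the 2-fold limit. The mean of the 9 hybridisation spikes was also lowest on the amdS6 arrays, from 10.03 to 10.26 against 10.30 to 10.75 in control plants. When the arrays were scaled on these spikes, the median over the whole array with amdS6 moved from 0.015 to 0.37, and that of ACS1A from -0.93 to -0.57, which is 0.94 below the new median. RNA quality and the strains cannot be told apart in this design.

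**Figure D2:**
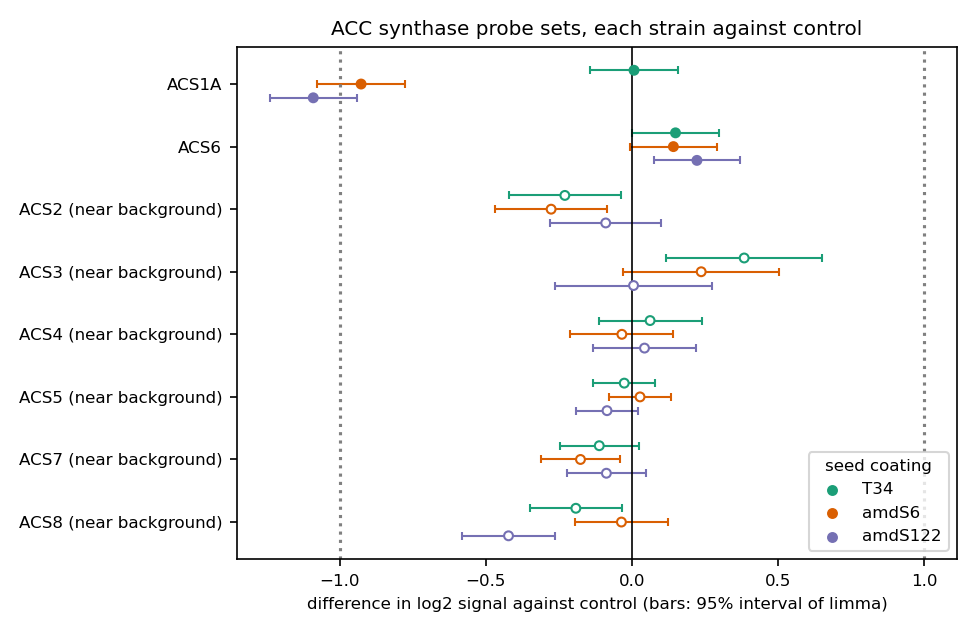
Difference in log2 signal of each ACC synthase probe set against control (horizontal axis) with its 95% confidence interval from limma, for T34, amdS6 and amdS122 (n = 3 arrays per group); dotted lines mark a 2-fold difference, and open points are probe sets near background, for which the difference is no measure of the transcript. Of the filled points, ACS1A with the transformants lies at -0.93 and -1.09 and ACS6 between 0.14 and 0.22.

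ACS6, the member with signals furthest above the reporter limit, changed little. Its log2 signals were 8.77, 8.90 and 9.01 in control plants, 8.99, 9.02 and 9.11 with T34, 8.97, 9.03 and 9.10 with amdS6, and 9.08, 9.22 and 9.05 with amdS122. All 3 strains overlapped with each other, and the amdS122 arrays alone were all above the highest control array. With amdS122 the rise was 1.17-fold (0.22 ± 0.068 (SE) on the log2 scale, adjusted p = 0.018). The log2 fold changes with T34 (0.15, 95% interval between 0.0012 and 0.30, adjusted p = 0.234) and amdS6 (0.14, from -0.0060 to 0.29, adjusted p = 0.114) were not past the adjusted p. Neither transformant differed from T34 at the adjusted p, with log2 fold changes of -0.0073 for amdS6 (95% interval between -0.15 and 0.14) and 0.073 for amdS122 (from -0.074 to 0.22), nor did amdS122 from amdS6 (0.081, from -0.067 to 0.23). With the 3' minus 5' covariate the value for amdS122 was 0.097 (adjusted p = 0.815), and with the arrays scaled on the spikes it was 0.25 (adjusted p = 0.27). With amdS6 the adjusted p passed the limit under 7 of 15 alternatives, among them without control replicate 3 (0.20, adjusted p = 0.0369) and without amdS6 replicate 1 (0.17, adjusted p = 0.0952). With amdS122, ACS6 and ACS1A, both above background in the same shoots, had changes of opposite sign.

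Among the members near background, ACS2, which answers wounding as well as ripening, gave 4.89, 4.93 and 5.10 in control plants, 4.59, 4.90 and 4.74 with T34, 4.56, 4.76 and 4.77 with amdS6, and 4.88, 4.97 and 4.80 with amdS122. The amdS6 arrays were all under the lowest control array (log2 difference of -0.28, adjusted p = 0.0232), while both other strains overlapped with the control. With the arrays scaled on the spikes this difference was 0.079 (adjusted p = 0.618), which is 0.29 below the median of all probe sets in that scaling. For this and the other probe sets near background the values are differences between log2 signals. They are not fold changes of the transcript, on which a signal at the level of the reporters sets only a bound. With the 3' minus 5' covariate the difference for ACS2 with amdS6 was -0.19 (adjusted p = 0.471). With T34 the ACS2 difference from control was -0.23 (adjusted p = 0.159), and it passed with the replicate numbers as a block.

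ACS3, known from flooded roots and from auxin treatment, read 4.41, 4.66 and 4.59 in control plants, 4.86, 4.71 and 5.23 with T34, 4.96, 4.69 and 4.72 with amdS6, and 4.50, 4.69 and 4.49 with amdS122. The T34 arrays lay above the control arrays (log2 difference of 0.38, adjusted p = 0.0936), with replicate 3 far above the other T34 arrays. Without it the difference was 0.24 (adjusted p = 0.227). It also missed the adjusted p without T34 replicate 1 (0.149) and without control replicate 1, 2 or 3 (0.245, 0.118 and 0.147). With the replicate numbers as a block the adjusted p for T34 was 0.114, and with the 3' minus 5' covariate the difference was 0.21 (adjusted p = 0.474). The amdS6 arrays also lay above the control arrays, but the adjusted p was missed (0.24, adjusted p = 0.143). Against T34 the amdS122 arrays were lower (-0.38, adjusted p = 0.0258), but the difference was -0.23 without T34 replicate 3 (adjusted p = 0.0945) and -0.79 with the 3' minus 5' covariate (adjusted p = 0.0333).

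ACS8 was below the reporter limit on all 12 arrays, so that its differences are those of a signal near background. The signals were 4.68, 4.45 and 4.57 in control plants, 4.29, 4.34 and 4.49 with T34, 4.48, 4.45 and 4.65 with amdS6, and 4.11, 4.17 and 4.15 with amdS122. The amdS122 arrays were the lowest of all and overlapped with no other group. The log2 difference was -0.42 against control (adjusted p = 0.000482), -0.23 against T34 (adjusted p = 0.0226) and -0.39 against amdS6 (adjusted p = 0.00163). With the 3' minus 5' covariate the adjusted p was missed against control (-0.36, adjusted p = 0.321) and against T34 (-0.19, adjusted p = 0.469), and with the spikes against T34 (-0.29, adjusted p = 0.182).

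For ACS7, another gene known from flooded roots, the control arrays read 4.23, 4.17 and 4.36 and the amdS6 arrays 4.03, 4.15 and 4.05 (log2 difference of -0.18, adjusted p = 0.0379). This missed the adjusted p without amdS6 replicate 1 or 3 or without control replicate 3 (adjusted p = 0.114, 0.105 and 0.141). The difference also missed it with a further quantile normalization (-0.13, adjusted p = 0.111) and with the 3' minus 5' covariate (adjusted p = 0.35). Scaled on the spikes it was 0.18 (adjusted p = 0.253), which is 0.19 below the median of all probe sets. The T34 and amdS122 arrays of ACS7 ranged from 4.03 to 4.21 and from 4.15 to 4.19. ACS4, the second ripening gene, ranged from 4.51 to 4.84 over the 12 arrays and ACS5 from 4.10 to 4.30. Neither passed the adjusted p in any of the 6 comparisons of the main fit. Scaled on the spikes, both passed with amdS6, ACS4 at 0.32 and ACS5 at 0.38 (adjusted p = 0.0436 and 0.0166). Relative to the median of all probe sets these were -0.049 and 0.013. ACS5 also passed in that scaling between amdS6 and T34 (0.32, adjusted p = 0.0586). Between the transformants ACS5 differed by -0.11 (adjusted p = 0.101) and passed under 5 of 14 alternatives.

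The counts of members that passed were read against the whole array, where many probe sets changed with the transformants. With T34, 1 of the 8 members passed the adjusted p against control (1 higher, ACS3, replaced by ACS2 with the replicate block). Of all probe sets 9.89% did (5.72% higher and 4.17% lower). Past the 2-fold limit as well there were 0 members by limma (0.0897% of all), 4 having an unadjusted p under 0.05, and 1 member had arrays that did not overlap with the control (24.7% of all). With amdS6, 3 members passed (all lower), against 49.9% of all probe sets (29% higher and 20.9% lower). Past the 2-fold limit there were 0 (1.67% of all), with 3 at an unadjusted p under 0.05, and 4 members did not overlap (53.1%). With amdS122, 3 passed (1 higher and 2 lower), against 52% of all (30% higher and 22% lower), 1, ACS1A, was past the 2-fold limit (2.14%), and 3 did not overlap (53.8%).

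Between amdS6 and T34, 1 member passed (45.7% of all), 0 past the 2-fold limit (1.9%) with 1 at an unadjusted p under 0.05, and 2 did not overlap (50%). Between amdS122 and T34, 3 passed (48.9%), 1 past the 2-fold limit (2.44%), and 3 did not overlap (51.7%). Between the transformants 2 passed (38.2%), 0 past the 2-fold limit (0.717%) with 3 at an unadjusted p under 0.05, and 4 did not overlap (46.1%). The share of members that passed was below that of all probe sets in the 5 comparisons with a transformant in this fit. It was not in some alternatives, such as amdS6 against control scaled on the spikes (6 members, 74.3% of all) and amdS122 against T34 (2 members, 18.7% of all with the spikes and 23.7% with the covariate). The median log2 fold change of the members was -0.0098 with T34, -0.035 with amdS6 and -0.086 with amdS122, against -0.0030, 0.015 and 0.025 over all probe sets. In a moderated F test over the 4 groups, 5 members passed (ACS1A, ACS2, ACS3, ACS6 and ACS8), where 65.5% of all probe sets did.

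The named probe sets nearest to ACS1A over the 12 arrays, each centred on its own mean, were WRKYIId-1, Ve2 and HSP17-6. The root mean square difference from ACS1A was 0.112, 0.113 and 0.122 on the log2 scale, against a median of 0.543 over the 908 other probe sets with a symbol. WRKYIId-1 is named as a WRKY transcription factor, Ve2 as a cell surface receptor-like protein of the Verticillium resistance locus, and HSP17-6 as a small heat shock protein. Their log2 fold changes were -0.74, -0.97 and -0.89 with amdS6, -0.90, -1.24 and -0.89 with amdS122, and 0.0092, -0.13 and 0.12 with T34. Because they were chosen as nearest over these same arrays, their likeness to ACS1A follows from the choice and is no separate result.

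**Figure D3:**
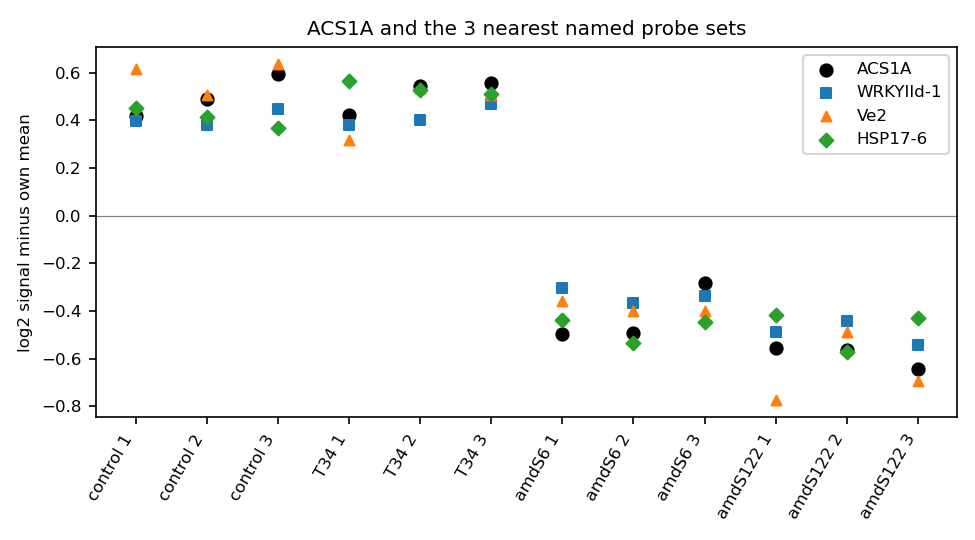
Log2 signal of ACS1A and of the 3 nearest named probe sets on each of the 12 arrays (horizontal axis), each minus its own mean over the arrays (vertical axis). All 4 probe sets are above their mean on the 6 arrays of control and T34 plants and below it on the 6 arrays of the transformants. The 3 were chosen for nearness to ACS1A on these same arrays, so the shared pattern follows from that choice.

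Around the ACC synthases, 47 probe sets of ethylene synthesis, perception and response were found by gene symbol, 7 of them near background. At the adjusted p, 4 were higher and 3 lower with T34 (5.72% and 4.17% of all probe sets). With amdS6 17 and 17 were (29% and 20.9% of all), and with amdS122 10 and 22 (30% and 22%). Past the 2-fold limit 0 changed with T34 by limma, and 4 with amdS6 and 5 with amdS122 were lower. Of all probe sets, 0.0897%, 1.67% and 2.14% changed past it in either direction. Scaled on the spikes, 29 were higher and 6 lower with amdS6, where 74.3% of all passed in either direction. This scaling moved every probe set alike and brought the median of all to 0.37. All probe sets past the 2-fold limit kept their direction under this scaling and with the 3' minus 5' covariate.

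Upstream of the family, SAM1 and SAM3, synthetases that make S-adenosylmethionine, rose with amdS6 (log2 fold changes of 0.43 and 0.28, adjusted p = 6.71e-05 and 0.000806), while their values with amdS122 were 0.071 and 0.035. Downstream, the ACC oxidase ACO4 was lower with amdS6 (-0.37, adjusted p = 1.54e-05, and with the spikes -0.016, or -0.39 relative to the median of all probe sets) and amdS122 (-0.63, adjusted p = 1.4e-07) and higher with T34 (0.25, adjusted p = 0.00295). The probe sets of ACO6, another ACC oxidase, differed: 1 of 3 was higher with T34, amdS6 and amdS122 (0.45, 0.53 and 0.42), the second was higher with amdS6 and amdS122 (0.33 and 0.19), and the third had values between -0.021 and -0.0086. With the 3' minus 5' covariate the second gave 0.20 and -0.035 (adjusted p = 0.335 and 0.94), and SAM3 gave 0.23 with amdS6 (adjusted p = 0.121). The paper lists 1 ACC oxidase probe set as at least 2-fold lower with both transformants. Among the 6 ACC oxidase probe sets found here, 0 were past that limit. The lists were matched by gene symbol, which 9129 tomato probe sets lack.

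The list of turnover and kinases of ACC synthase proteins held 6 probe sets. With either transformant 1 was higher (29% of all with amdS6, 30% with amdS122) and 5 were lower (20.9% and 22% of all). The higher one was MPK2, a mitogen-activated protein kinase, with log2 fold changes of 0.14 with amdS6 and 0.13 with amdS122 (adjusted p = 0.0355 and 0.0423). With the 3' minus 5' covariate MPK2 gave 0.079 and 0.030 (adjusted p = 0.613 and 0.926). All 3 probe sets of MPK3, another such kinase, were lower with the transformants. The one with the largest change had means of 8.57 in control plants, 8.42 with T34, 7.31 with amdS6 and 6.95 with amdS122, with log2 fold changes of -1.26 (adjusted p = 4.29e-10) and -1.62 (adjusted p = 3.2e-11). The second gave -1.14 and -1.43, and the third, near background, differed by -0.54 and -0.65. With the 3' minus 5' covariate the third gave -0.20 and -0.061 (adjusted p = 0.457 and 0.914), and with the spikes -0.19 with amdS6 (adjusted p = 0.231). The MPK3 probe sets share 1 gene and are not independent. The probe set of cpk1 was lower, by log2 fold changes of -0.18 with amdS6 (adjusted p = 0.00937) and -0.28 with amdS122 (adjusted p = 0.000359). Scaled on the spikes, cpk1 gave 0.18 and -0.26 (adjusted p = 0.255 and 0.238), or -0.19 and -0.31 relative to the median of all probe sets. With the 3' minus 5' covariate cpk1 passed with neither (adjusted p = 0.159 and 0.178). The calcium-dependent kinase CDPK1 was also lower, by log2 fold changes of -0.17 with amdS6 (adjusted p = 0.00659) and -0.32 with amdS122 (adjusted p = 5.99e-05). Scaled on the spikes, CDPK1 gave 0.19 with amdS6 and -0.29 with amdS122 (adjusted p = 0.228 and 0.164), or -0.18 and -0.34 relative to the median of all probe sets, and neither passed with the covariate (adjusted p = 0.275 and 0.201).

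In perception and response, the receptor gene ETR4 was lower with amdS122 (log2 fold change of -0.66, adjusted p = 0.000271), and LOC544279, which RefSeq also names ETR3, was higher with amdS6 (0.42, adjusted p = 0.000339). The coactivator ER24 was lower with both transformants (log2 fold changes of -2.37 for amdS6 and -2.01 for amdS122), and EIL2, a factor of the EIN3 family, rose (0.41 and 0.50, adjusted p = 0.000266 and 5.06e-05). With the 3' minus 5' covariate EIL2 gave 0.28 with each (adjusted p = 0.106 and 0.349), and ETR4 with amdS122 gave -0.80 (adjusted p = 0.128). PTI5, an ethylene response factor, went from 8.44 in control plants to 4.94 and 5.00 with the transformants, close to the reporter limit (log2 fold changes of -3.51 and -3.44). ERF3 gave -0.40 with amdS6 and -1.05 with amdS122 in 1 of its 2 probe sets, and the other was near background. Scaled on the spikes, the first value was -0.045 (adjusted p = 0.775), or -0.42 relative to the median of all probe sets, and the second -1.02.

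**Figure D4:**
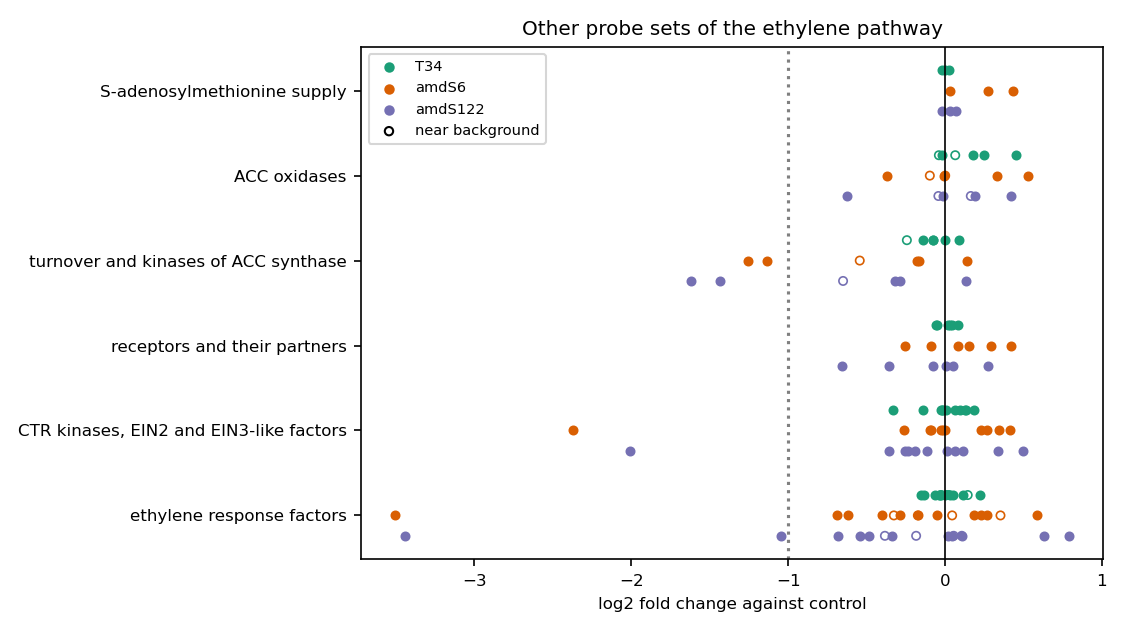
Log2 fold change against control (horizontal axis) of 47 other probe sets of the ethylene pathway in 6 lists, each point a probe set, coloured by seed coating, with open points for probe sets near background and a dotted line at a 2-fold fall. PTI5, ER24 and MPK3 with the transformants lie furthest to the left, and the T34 values stay between -0.33 and 0.45.

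The tissue label was set against marker genes. The 5 leaf markers found on the array, among them the light-harvesting gene CAB4, had mean signals from 14.06 to 14.36, and 0 passed the adjusted p with any strain against control. Of 10 probe sets for ripening fruit and flower, 7 were near background, including PG2, RIN and E8, and the 3 others belonged to Psy1. With T34 1 of the 10 was higher and 2 lower (5.72% and 4.17% of all probe sets). With amdS6 0 and 5 were (29% and 20.9%), and with amdS122 3 and 1 (30% and 22%). Of those near background, AG1 was higher with T34 (log2 difference of 0.73), where its mean of 5.27 was above the reporter limit. TAGL1 was higher with amdS122 (0.55). Of 7 probe sets from a list of root markers, 5 were above background. The mean over all 7 ranged from 7.52 to 7.69 in control plants, 7.77 to 7.79 with T34, 7.45 to 7.47 with amdS6 and 7.52 to 7.59 with amdS122. With T34 2 of the 7 were higher and 0 lower (5.72% and 4.17% of all probe sets). With amdS6 1 and 4 were (29% and 20.9% of all), and with amdS122 3 and 3 (30% and 22%). FRO1 and PT1 were higher with T34 (log2 fold changes of 0.70 and 0.59) and lower with amdS6 (-0.23 and -0.64) and amdS122 (-0.44 and -0.70), whereas RSI-1 was higher with amdS6 and amdS122 (0.33 and 0.67). AMT1-2 was lower with amdS6 (-0.30) but higher with amdS122 (0.25), and NRAMP3 was higher with amdS122 (0.18). Of those near background, PT2 was lower with amdS6 and amdS122 (log2 differences of -0.46 and -0.36), and NRAMP1 passed with no strain. The part of these root markers in the change of ACS1A was not tested.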

How the data were processed

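RNA from the aerial parts of tomato was measured on 12 arrays (4 groups of 3). The deposited table holds log2 signals after RMA, by which the authors corrected the background, applied quantile normalization and summarised probes into probe sets. Affymetrix Expression Console is named in their processing notes, and versions are not given in the sources used here. Array medians lay between 7.80 and 7.87. Within groups the SD had a median of 0.066 over the probe sets, and precision is limited by 3 arrays per group.

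All 10038 tomato probe sets entered a single limma fit (version 3.58.1, R 4.3.3) of the 12 arrays with a mean for each group. Benjamini-Hochberg adjustment ran over all of them within a comparison. Probe sets were named from the annotation of the array, in which 909 have 1 symbol, 0 several and 9129 none; 885 symbols were matched to RefSeq by gene identifier. ACS1A lies next to ACS1B in RefSeq (assembly SLM_r2.1), a close copy with no probe set of its own in the annotation, and whether the probe set also reads it was not tested. RefSeq gives LE-ACS6 as a synonym of both ACS6 and ACS8, which were told apart by identifier.

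The members, pathway lists and tests were chosen with earlier results of these data known. The text names all members, the 2 probe sets per list with the largest change of any strain, and the 3 named probe sets nearest to members whose group means span at least 0.5. MPK2, CDPK1, cpk1 and the markers were named after their values were seen. Deviations of same-numbered arrays from their group means correlated over 0.1 in 10 of 18 pairs. Control against T34 was the one comparison where all 3 pairs did (0.171 to 0.549). The main fit holds no block and leaves this pairing out. A fit with the replicate numbers as a block was run as an alternative. With 3 arrays against 3 an exact permutation test gives no two-sided p under 0.1. P-values measure the spread between pools of plants. The fit was tested on simulated data. No probe or protein sequences were used here.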

Additional observations from a re-analysis of the deposited data

How the results depend on the processing

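The fall of ACS1A with each transformant, against control and against T34, kept its direction and its adjusted p under all 15 alternatives run for each (log2 fold changes from -0.998 to -0.571 for amdS6 and from -1.13 to -0.96 for amdS122 against control), and the 2-fold call with amdS122 was lost only with the 3' minus 5' covariate. Counts of members at the adjusted p moved more, and are given with the share of all probe sets that passed under the same alternative.

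For T34 against control the count of 1 became 0 with only the compared groups (5.68% of all probe sets), the 3' minus 5' covariate (4.8%), dim probe sets left out (15.6%) or an adjusted p under 0.05 (6.12%), and ranged from 0 to 2 when single arrays were left out. For amdS6 against control the count of 3 became 6 with scaling on the spikes (74.3%) and 1 with the covariate (23.9%). For amdS122 against control it became 1 with the covariate (13.8%), and the count past the 2-fold limit 0. For amdS6 against T34 the count of 1 became 2 with the replicate block (48%), a further quantile normalization (44.9%) or array weights (52.8%) and 3 with the spikes (56%). It ranged from 1 to 2 without single arrays, and the count past the 2-fold limit from 0 to 1. For amdS122 against T34 the count of 3 became 1 without dim probe sets (61%). Between the transformants the count of 2 became 4 with the spikes (61.7%) and 1 without dim probe sets (50.4%), with a variance trend and robust moderation (39%) or with an adjusted p under 0.05 (30.7%), and ranged from 1 to 3 without single arrays. Leaving out dim probe sets removed the 6 members near background from the test. With the median of the reporters as the limit, 0 members were near background.

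Signs turned for ACS1A with T34 (-0.0089 with a further quantile normalization, -0.0086 with array weights, from -0.034 to 0.054 without single arrays), for ACS2 and ACS7 with amdS6 (0.079 and 0.18 with the spikes), and for ACS6 between amdS6 and T34 (0.26 with the spikes, 0.035 with array weights, from -0.041 to 0.028 without single arrays), between amdS122 and T34 (-0.015 with the covariate) and between the transformants (-0.25 with the spikes). Scaling on the spikes shifts all probe sets alike, and relative to the new median ACS2 and ACS7 were at -0.29 and -0.19, and ACS6 at -0.029 between amdS6 and T34 and 0.065 between the transformants, so that no sign turned relative to it. The cause of the turns under other alternatives was not tested. Of 29 further differences of members near background that did not pass, 36 of 406 alternative values changed sign and 28 passed. For the 7 differences of these members that passed, 18 of 98 alternative values missed the adjusted p. Of 12 arrays, 7 correlated best with their own replicate number, and the replicate block moved no other count of members by over 1.5 times. For T34 against control the blocked count stayed at 1, with ACS2 (-0.23, adjusted p = 0.0921) in place of ACS3 (adjusted p = 0.114).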
